A study of Homo sapiens with 8 samples.

Results

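The genes described here are the expressed members of the ZNF series of zinc finger genes in A549 cells, a human lung adenocarcinoma line. Members were chosen by their annotation and level: a protein-coding gene in GENCODE 44, a symbol of ZNF followed by a digit, and at least 80 raw counts summed over all 8 libraries. This selected 38 of 515 protein-coding ZNF genes and of 58302 genes in the table. The level minimum was set on the sum over both groups, without regard to the difference between them. RNA-seq had been run on A549 cells 72 h after transient transfection, in 4 libraries labelled siCTRL (scramble siRNA) and 4 labelled siAPEX1 (siRNA against APEX1, the gene of the DNA repair and redox protein APE1). Both groups were the same line, transfected with siRNA of either kind, with no added drug and no untransfected control, so a change that transfection itself causes is shared by both. The question put to the members was whether their RNA differed between the groups, and whether the genes on chromosome 19 differed in this from the rest.

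Most ZNF proteins carry tandem C2H2 fingers, small zinc-held folds that each read a few bases of DNA, joined by short linkers of the amino acids TGEKP. Many also hold a KRAB domain, which recruits the co-repressor TRIM28 and, with it, the histone methyltransferase SETDB1 to silence transposable elements. Human chromosome 19 holds large clusters of such genes that arose by tandem duplication.

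The libraries held between 1348386 and 1949886 counts on genes, lower in the libraries labelled siAPEX1 (at most 1619500) than in those labelled siCTRL (at least 1639796). The minimum on summed raw counts thus drew more on the siCTRL libraries, which favours genes that stand higher there. The libraries were made with a small RNA kit and the members were thinly covered, with 617 to 1056 counts per library over all 38. APEX1 itself went against its label, with 51, 61, 64 and 47 counts in siCTRL and 21150, 19470, 27916 and 20767 counts in siAPEX1. Counts per gene cannot tell reads of the APEX1 transcript from reads of the transfected siRNA, and an exchange of labels between the groups, which would turn every direction, was not tested. Every direction below is therefore that of the libraries as labelled. Markers of the line were present, with 7 of 8 at 80 counts or more, and 6 markers of blood, vessel and stromal cells held between 0 and 37 counts over all libraries, with CD3E and PECAM1 at 0. In bulk RNA, fewer cells of a kind and less RNA per cell cannot be told apart.

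The sequence that the siRNA strand pairs with lies in the APEX1 coding exon at chr14:20457082-20457102 (GRCh38, plus strand). It shares the 7 bases ACTGGAG, printed in capitals, with the codons that begin a TGEKP linker in many finger genes. The site is shown with the first TGEKP linker that begins with this word in 3 members of chromosome 19, each with 6 bases before the word: ZNF480 at chr19:52322004-52322030, ZNF766 at chr19:52290833-52290859 and ZNF302 at chr19:34685037-34685063 (all plus strand).
APEX1 site: aggtctggtacgACTGGAGta
ZNF480 linker: attcatACTGGAGagaaaccttacaaa
ZNF766 linker: atccacACTGGAGagaaaccttacaaa
ZNF302 linker: agccatACTGGAGagaagccttatgaa

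Over the whole family, counts in these small RNA kit libraries were low, though the share of other genes that reach the minimum was not taken. Of the 515 genes, 96 had no count in any library, 381 had between 1 and 79, and 38 reached the minimum. On chromosome 19, 10 of 249 genes did (4.02%), beside 28 of 266 elsewhere (10.5%), which lay on 14 other chromosomes. The median gene had 7 summed counts on chromosome 19 and 22 elsewhere. Whether reads that fit several like genes were lost more often on chromosome 19 was not tested. A KRAB A-box pattern was found in the translated main transcript of 253 of the 515 genes (49.1%) and of 7 of the 38 members (18.4%). These were ZNF12, ZNF33A, ZNF37A and ZNF337 and, on chromosome 19, ZNF302, ZNF480 and ZNF766. The members thus held few of the chromosome 19 KRAB genes that make up much of the family. Members just inside the minimum were ZNF766, ZNF302 and ZNF480 with 82, 83 and 88 summed counts, all on chromosome 19, and the genes just outside were ZNF598, ZNF219 and ZNF496 with 79, 77 and 77.

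Per length of exon, ZNF581 stood highest in siCTRL, at 10.5 ± 1.77 CPM per kb (SD, n = 4). CPM are a library's counts taken to a common total and here are scaled by TMM factors, which set aside differences in RNA composition between libraries. ZNF428 followed at 6.45 ± 1.44, then ZNF281 at 6.08 ± 1.03, ZNF146 at 5.89 ± 1.44, ZNF580 at 5.2 ± 0.942 and ZNF217 at 4.68 ± 0.679 CPM per kb. The lowest ZNF581 library (8.5) was above the highest library of each of the other 5 (at most 8.06). The ranges of each pair of neighbours from ZNF428 to ZNF217 overlapped. Exon bases shared with other genes were left in these lengths, 407 of 1635 in ZNF581 and, on the opposite strand, 498 of 1553 in ZNF428. Whether ZNF581 stands apart per unshared base was not tested. The median member stood at 1.35 and the lowest, ZNF451, at 0.638 CPM per kb. In the libraries labelled siAPEX1 the order at the top differed: ZNF281 stood at 9.81 ± 1.85, ZNF146 at 7.51 ± 1.86 and ZNF581 at 3.25 ± 0.297 CPM per kb. ZNF146 encodes a protein made almost wholly of fingers, and ZNF217 an oncoprotein that binds CtBP co-repressors.

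Between the groups, 6 of the 37 members that passed the filter on low counts changed: ZNF581 and ZNF652 fell, and ZNF281, ZNF292, ZNF507 and ZNF770 rose. The change of 1 of them, ZNF581, was past a doubling or halving. A gene was taken to have changed where edgeR's quasi-likelihood test gave a Benjamini-Hochberg adjusted p of at most 0.05 over all 5368 genes tested. The share of members that changed was 16.2%, below that of all tested genes (31.7%), of tested protein-coding genes (28.4%) and of the 4009 protein-coding genes within the members' own range of 82 to 483 counts (25.5%). By direction, 15.9% of all tested genes rose and 15.8% fell. Of all genes 9.28% also reached an absolute log2 fold change of 1, beside that 1 member. The median log2 fold change of the tested members was 0.01, with quartiles of -0.26 and 0.35, and that of all tested genes was -0.00. Positive values were found in 20 members and negative values in 17, and 26 of the 37 lay within 0.5 of no change. With DESeq2 4 members passed, 3 higher and 1 lower, beside 20.9% of all tested genes in either direction.

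**Figure D1:**
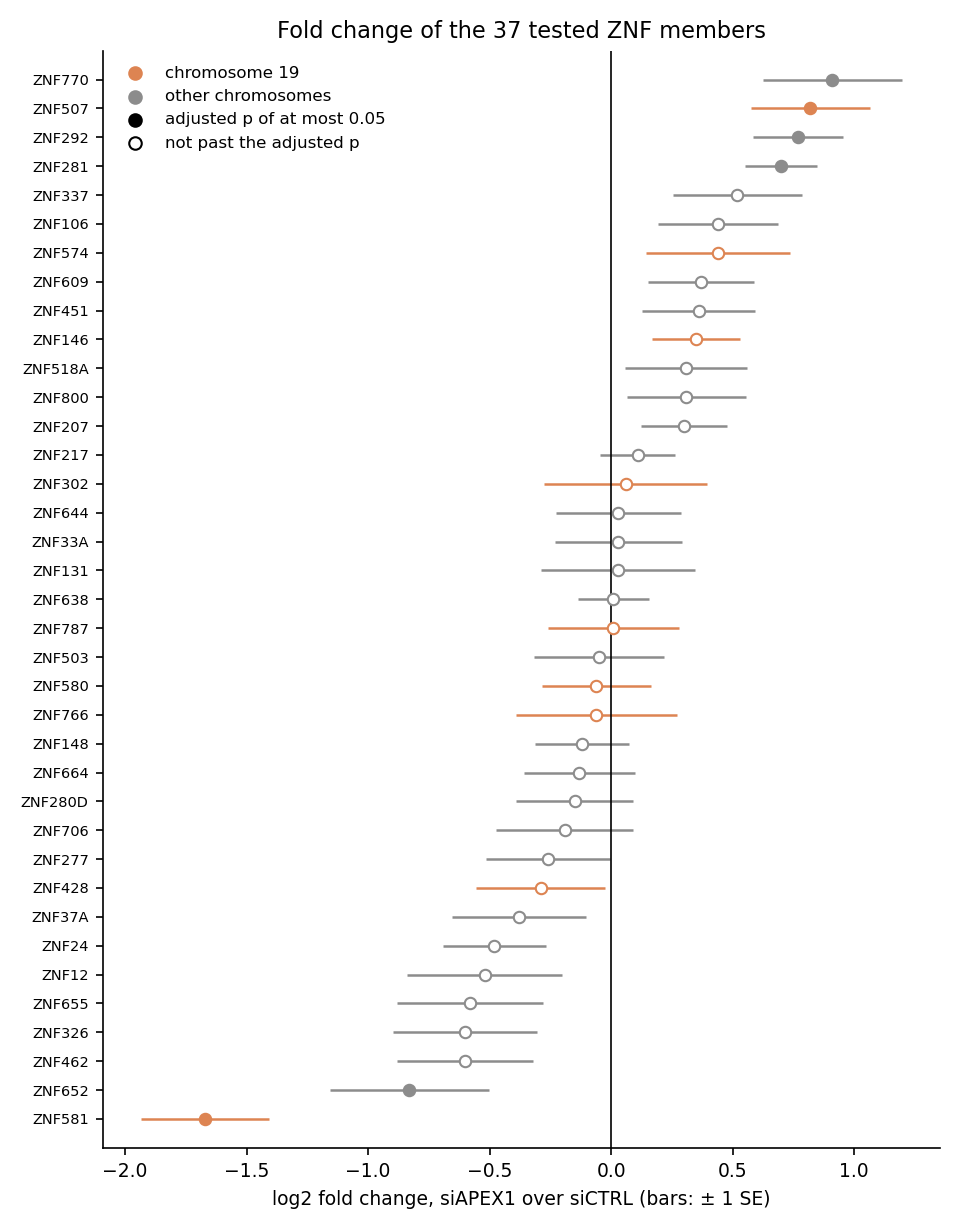
Log2 fold change (siAPEX1 over siCTRL, x axis) of each of the 37 tested members, with bars of 1 standard error (edgeR, 4 libraries a group); orange marks chromosome 19 and filled points an adjusted p of at most 0.05. ZNF581 lies alone at -1.67, the 4 filled points on the right lie between 0.70 and 0.91, and the other orange points are spread through the grey ones.

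The count of higher and lower members rested on the scaling. The TMM factors were 1.103 to 1.137 in siCTRL and 0.8733 to 0.9191 in siAPEX1. With library size as the only scaling, the median of all tested genes moved to -0.34 and that of the members to -0.33. In that setting 1 member passed as higher and 11 as lower, while 42.6% of all tested genes passed in either direction. Changes are therefore given relative to the bulk of genes. On that scale ZNF281 remained higher at 0.36 and ZNF581 lower at -2.01, while ZNF292, ZNF507 and ZNF770 did not pass (adjusted p of 0.0618, 0.107 and 0.102).

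ZNF581 (ENSG00000171425, chr19:55635459-55645623, plus strand, GRCh38) fell in every library labelled siAPEX1. Its raw counts were 41, 33, 30 and 33 in siCTRL and 7, 7, 7 and 6 in siAPEX1, which is 20.6, 16, 13.9 and 18.3 CPM against 5.76, 5.68, 5.05 and 4.77 CPM. The groups were far apart, and the siAPEX1 libraries lay close together. The mean fell from 17.2 ± 2.9 to 5.31 ± 0.486 CPM (SD, n = 4), a 3.19-fold lower level with a log2 fold change of -1.67 (SE 0.263, adjusted p = 2.24e-06). The value lay between -2.01 and -1.57 under all 15 alternative settings that could test it, past the adjusted p in each. The gene encodes a short protein with 4 fingers, no TGEKP linker and no KRAB A-box.

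Its nearest neighbour, ZNF580, lies on the same strand and shares 407 bases of exon with it, yet did not pass the test. By the outermost GENCODE 44 bounds ZNF580 starts 443 bases before ZNF581. ZNF580 held 33, 23, 26 and 26 counts in siCTRL and 18, 18, 14 and 16 in siAPEX1. Scaled, these were 13.5 ± 2.45 and 13.1 ± 2.19 CPM, with overlapping groups and a log2 fold change of -0.06 (SE 0.224, adjusted p = 0.882). The ratio of ZNF581 to ZNF580 counts within a library needs no scaling between libraries. It was 1.24, 1.43, 1.15 and 1.27 in siCTRL and 0.389, 0.389, 0.5 and 0.375 in siAPEX1. ZNF581 was thus the more counted gene of the pair in all 4 siCTRL libraries and the less counted in all 4 siAPEX1 libraries. On the log2 scale the mean ratio went from 0.35 to -1.29, a difference of -1.63 (two-sided exact permutation test, p = 0.0286, the smallest that 4 against 4 libraries can give). The pair was chosen after its values were seen. STAR's gene counting leaves out a read that falls on exons of both genes. It is assumed, as the annotation release used is not given, that each count came from exon bases the other gene does not share. Among the other tested genes that start within 100 kb, U2AF2 was at -0.34 on the log2 scale (adjusted p = 0.0616) and EPN1 fell by 0.57 (adjusted p = 0.0284).

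**Figure D2:**
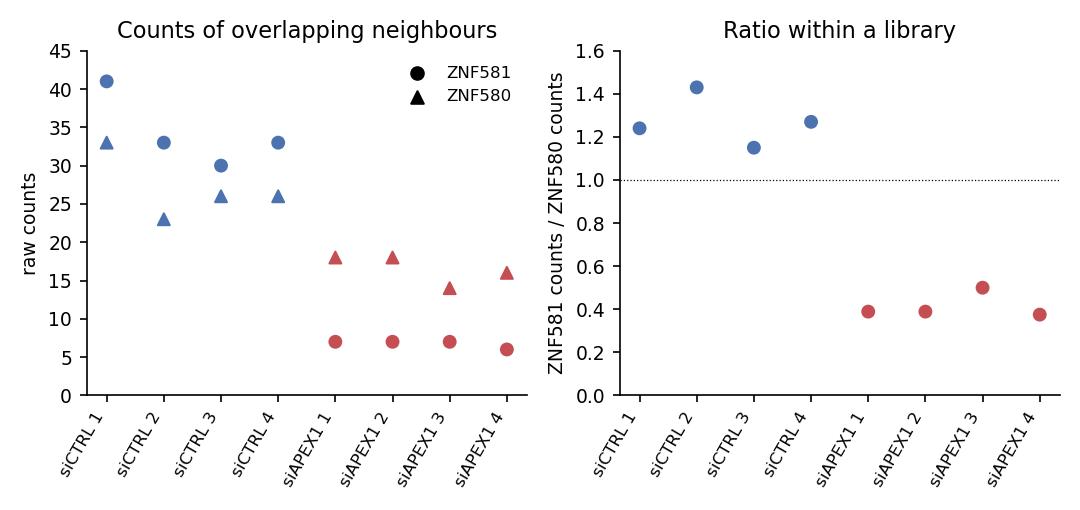
Raw counts of ZNF581 (circles) and ZNF580 (triangles) in each library (left) and the ratio of the 2 counts (right); blue marks siCTRL and red siAPEX1. Circles lie above triangles in siCTRL and below them in siAPEX1, and the ratio falls from at least 1.15 to at most 0.5.

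The start regions of these neighbours are shown because the genes overlap and differ in response. Windows were taken from the RefSeq promoter table (GRCh38.p14), upstream of the start, and kept to the longest stretch free of any GENCODE 44 exon. In capitals are GC boxes (GGGCGG) and CCAAT boxes, on either strand. RefSeq places the start of ZNF581 at 55643649, 8190 bases inside the GENCODE bounds given above, and 3 starts of ZNF580 at 55641002, 55642052 and 55642097, of which the first was used because exons cover the windows of the other 2. The ZNF581 stretch is chr19:55643471-55643648, between the end of ZNF580 and the RefSeq start of ZNF581, and the ZNF580 stretch is chr19:55640752-55640984, both on the plus strand.
ZNF581: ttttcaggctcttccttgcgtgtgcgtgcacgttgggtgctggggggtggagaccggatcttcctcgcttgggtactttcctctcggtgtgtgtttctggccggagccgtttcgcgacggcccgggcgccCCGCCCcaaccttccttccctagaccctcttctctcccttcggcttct
ZNF580: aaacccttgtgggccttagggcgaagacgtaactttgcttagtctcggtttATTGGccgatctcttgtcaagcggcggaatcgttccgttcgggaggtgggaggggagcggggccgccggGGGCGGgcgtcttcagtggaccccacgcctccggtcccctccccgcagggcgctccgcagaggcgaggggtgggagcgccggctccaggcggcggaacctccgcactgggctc
Each of the 2 stretches held 1 GC box, and a CCAAT box was found in that of ZNF580 alone. The GC content was 62.9% for ZNF581 and 68.7% for ZNF580, with 15 and 25 CpG pairs.

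ZNF281, a transcription factor known from stem cell and epithelial-mesenchymal transition programmes, was the most counted member and rose. Its counts were 49, 65, 58 and 65 in siCTRL and 44, 65, 79 and 58 in siAPEX1, which overlapped before scaling. In CPM the groups did not overlap, at 24.6, 31.5, 26.9 and 36 against 36.2, 52.8, 57 and 46.1, though the nearest libraries were 36 and 36.2. The mean rose from 29.7 ± 5.04 to 48 ± 9.04 CPM (SD, n = 4), 1.63-fold, with a log2 fold change of 0.70 (SE 0.147, adjusted p = 0.000219).

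ZNF292, a large multi-finger transcription factor and candidate tumour suppressor, rose by a like amount. It held 28, 33, 37 and 25 counts in siCTRL and 36, 38, 26 and 33 in siAPEX1, or 14.1, 16, 17.1 and 13.8 CPM against 29.6, 30.8, 18.7 and 26.2 CPM. The groups did not overlap in CPM, and siAPEX1 replicate 3 was the lowest of its group. The log2 fold change was 0.77 (SE 0.185, adjusted p = 0.00118). Upstream of both rising genes the window held 2 GC boxes. That of ZNF281 (chr1:200410057-200410286, minus strand, ending 21 bases before the start) also held a CCAAT box, and that of ZNF292 (chr6:87155362-87155562, plus strand) did not.
ZNF281: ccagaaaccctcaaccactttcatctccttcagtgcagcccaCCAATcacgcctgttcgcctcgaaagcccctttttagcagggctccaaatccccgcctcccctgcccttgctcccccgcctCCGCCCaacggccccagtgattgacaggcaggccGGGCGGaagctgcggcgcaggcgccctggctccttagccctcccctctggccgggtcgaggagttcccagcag
ZNF292: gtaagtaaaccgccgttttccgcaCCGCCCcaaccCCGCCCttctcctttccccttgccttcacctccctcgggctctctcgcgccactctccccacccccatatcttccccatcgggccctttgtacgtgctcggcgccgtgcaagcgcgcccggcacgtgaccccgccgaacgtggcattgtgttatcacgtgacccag

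The other 3 members that changed, named after their values were seen, had groups that overlapped in CPM. ZNF770 held 9, 10, 14 and 17 counts in siCTRL and 10, 19, 20 and 11 in siAPEX1, with a log2 fold change of 0.91 (SE 0.286, adjusted p = 0.0125). Its siAPEX1 libraries split into a higher pair, 15.4 and 14.4 CPM, and a lower pair, 8.23 and 8.74 CPM, the latter below the highest siCTRL library (9.41). ZNF507, on chromosome 19, held 19, 22, 18 and 12 counts against 17, 28, 14 and 21, a log2 fold change of 0.82 (SE 0.246, adjusted p = 0.00837), and its lowest siAPEX1 library (10.1 CPM) was below its highest siCTRL library (10.7 CPM). Leaving out siAPEX1 replicate 2 took ZNF770 and ZNF507 out of the changed genes, with adjusted p of 0.0599 and 0.072. ZNF652, a repressor that works with the co-repressor CBFA2T3, held 13, 16, 26 and 21 counts against 4, 11, 4 and 8. Its log2 fold change was -0.83 (SE 0.327, adjusted p = 0.048), and the call was lost in 8 of 15 alternatives, DESeq2 (adjusted p = 0.155) among them. Across all tested genes, 28.9% had groups that did not overlap in CPM, beside 4 of the 37 members (10.8%): ZNF581, ZNF281, ZNF292 and ZNF337. ZNF337, a KRAB gene whose exons overlap other genes over 65.6% of their length, stood at 7.04, 7.75, 6.95 and 6.09 CPM in siCTRL and 9.88, 8.93, 12.3 and 8.74 CPM in siAPEX1, without passing the test (log2 fold change 0.52, adjusted p = 0.148).

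**Figure D3:**
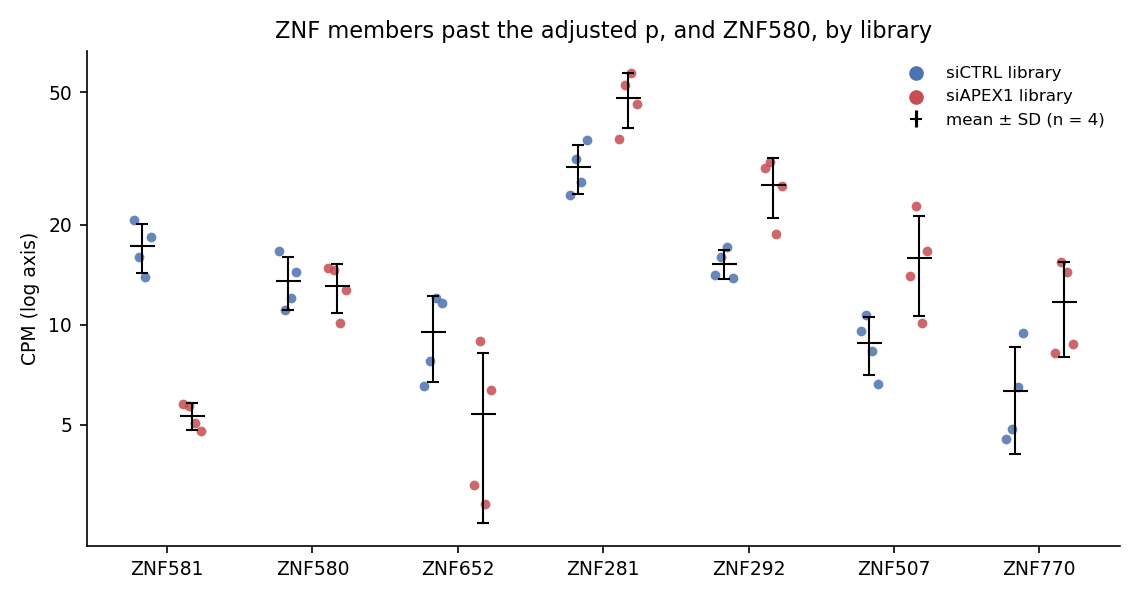
CPM of the 6 changed members and of ZNF580 (log axis), 1 point per library, blue for siCTRL and red for siAPEX1, with the mean and SD of each group of 4 in black. The groups of ZNF581 are wide apart, those of ZNF281 and ZNF292 are separate, and those of ZNF652, ZNF507, ZNF770 and ZNF580 overlap.

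The median change was close to 0 both on chromosome 19 and elsewhere. Of its 10 members 9 were tested, and 2 changed, ZNF581 down and ZNF507 up. Among the 28 members elsewhere 4 changed, 3 up and 1 down. The median log2 fold change was 0.01 on chromosome 19 and 0.02 elsewhere, a difference of -0.02, which is less than the SD of that difference between libraries of a group (0.0446). Its sign was not stable, at -0.08 without siAPEX1 replicate 1, -0.09 without siAPEX1 replicate 2, 0.05 without siAPEX1 replicate 4 and -0.17 among members of at least 160 counts. Summed over the 10 members, the level was 111, 104, 114 and 108 CPM in siCTRL and 110, 131, 98 and 96.9 CPM in siAPEX1. These sums overlapped, with means of 109 ± 4.28 and 109 ± 15.7 CPM (SD, n = 4). The 28 other members summed to 377 ± 19.2 CPM in siCTRL and 407 ± 13.7 CPM in siAPEX1, with overlapping libraries (up to 397 and from 393). The chromosome 19 share of the members' CPM was 20.7% to 24% in siCTRL and 19.6% to 24.2% in siAPEX1. Below the minimum, the 239 further ZNF genes of chromosome 19 summed to 220 ± 17.2 and 245 ± 21.8 CPM, and the 238 elsewhere to 433 ± 22.9 and 446 ± 15.7 CPM, each with overlapping groups. As 1 set, the 477 did not overlap, at 628 to 675 CPM in siCTRL and 678 to 708 CPM in siAPEX1. These sums turned with the scaling: per library size alone the 477 stood at 676 to 747 counts for each 1000000 in siCTRL and 586 to 619 in siAPEX1, and the 38 members at 513 to 542 and 424 to 483.

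**Figure D4:**
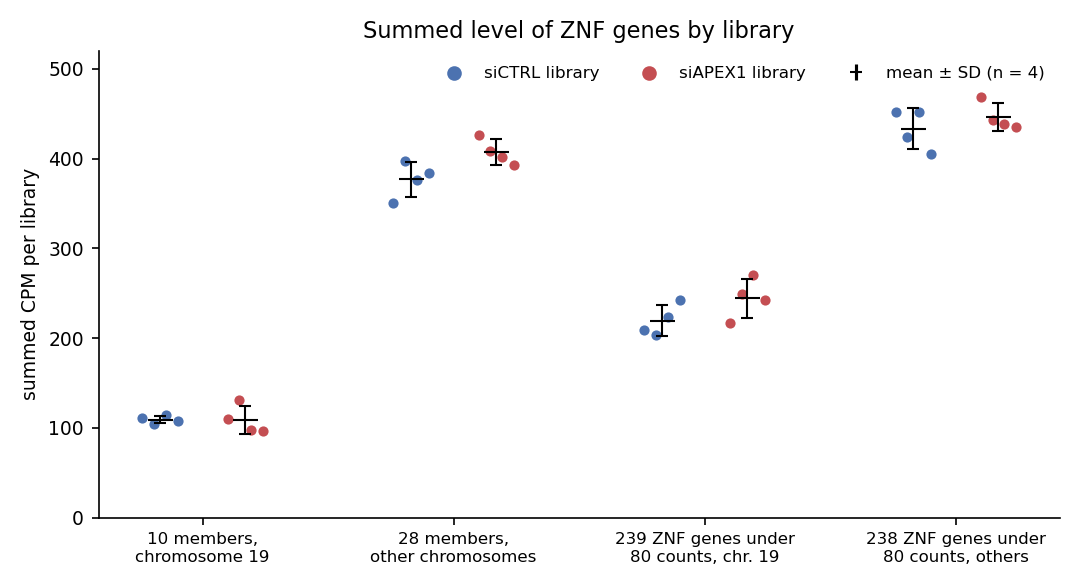
Summed CPM per library of ZNF genes in 4 sets, members and genes under 80 counts, each on chromosome 19 and elsewhere; points are libraries (blue siCTRL, red siAPEX1) and black marks give the mean and SD of 4. In every set the red and blue points overlap.

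Among the chromosome 19 members that did not pass, values ranged from ZNF428 at -0.29 (SE 0.266) to ZNF574 at 0.44 (SE 0.298). ZNF146 stood at 0.35 (SE 0.18, adjusted p = 0.138), with 53, 32, 60 and 50 counts in siCTRL and 41, 49, 41 and 27 in siAPEX1. It passed without siAPEX1 replicate 4 (0.52, adjusted p = 0.0346) and stood at 0.18 without siCTRL replicate 2. ZNF480 was too low for the filter, with 8, 20, 16 and 17 counts against 8, 6, 5 and 8, and its log2 fold change was -0.61 (SE 0.335, adjusted p = 0.351) when all genes with a count were tested. None of the 6 tested KRAB members passed with edgeR under TMM scaling, nor did any at an unadjusted p under 0.05 or with DESeq2. Their log2 fold changes ran from -0.52 for ZNF12 to 0.52 for ZNF337. With library size as the only scaling in edgeR, ZNF12 (-0.85, adjusted p = 0.0234) and ZNF37A (-0.72, adjusted p = 0.0299) passed as lower. ZNF33A and ZNF37A have near-identical copies elsewhere, so their counts are uncertain.

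Members with other known roles mostly lay near no change and did not pass. ZNF638, an RNA-binding protein that recruits the HUSH silencing complex to retroviral DNA, was well counted at 63, 74, 77 and 62 against 53, 34, 53 and 37, with a log2 fold change of 0.01 (SE 0.147). ZNF217 stood at 0.11 (SE 0.155). ZNF207, a spindle protein that binds BUB3, stood at 0.30 (SE 0.176, adjusted p = 0.196), and ZNF451, a SUMO ligase, at 0.36 (SE 0.232). ZNF148, known as ZBP-89, stood at -0.12 (SE 0.192), ZNF503, a co-repressor, at -0.05 (SE 0.269) and ZNF706 at -0.19 (SE 0.282). ZNF326, a subunit of the DBIRD complex that links transcript elongation to splicing, stood at -0.60 (SE 0.297, adjusted p = 0.123) and passed without siAPEX1 replicate 1 (-0.90, adjusted p = 0.0428). Over all tested members the standard error was between 0.147 and 0.334, so log2 differences of that size, and larger ones, could be missed at this depth. The smallest member change that passed was 0.70, in ZNF281. Of the list of 29 ZNF genes with a known role, 12 were members.

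Of the partners of the KRAB proteins, TRIM28 fell slightly and SETDB1 did not pass the test. TRIM28, the co-repressor, held 110, 96, 103 and 91 counts in siCTRL and 46, 54, 53 and 49 in siAPEX1, or 50 ± 3.91 and 39.7 ± 2.78 CPM. It fell by 0.33 on the log2 scale (SE 0.127, adjusted p = 0.0424), a call lost with DESeq2 and with TMM factors from protein-coding genes alone. SETDB1 held 9, 9, 14 and 7 counts against 9, 9, 10 and 9, with a log2 fold change of 0.57 (SE 0.314, adjusted p = 0.18). Its counts overlapped before scaling. In CPM its groups did not, at 3.87 to 6.49 in siCTRL and 7.15 to 7.41 in siAPEX1, as was so for 28.9% of all tested genes. Of 24 genes listed for this silencing machinery 19 were tested, with a median of -0.15. Of these 2 fell (10.5%), TRIM28 and the nucleosome remodelling subunit MTA1 (-0.74, adjusted p = 0.00802), beside 15.8% of all tested genes. With library size as the only scaling 8 of the 19 fell and none rose, where 42.6% of all tested genes passed in either direction. None of the 3 tested HUSH genes passed with DESeq2 or with edgeR under TMM scaling, where 1 had an unadjusted p under 0.05. With library size as the only scaling 1 of them, TASOR, passed as lower.

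In other families of C2H2 genes the changes that passed were upward under every scaling but library size alone, which gave 1 higher and 2 lower. Of 21 genes of the ZBTB, ZKSCAN, ZFP, KLF, SP and EGR families with at least 80 counts, 20 were tested. Their median log2 fold change was 0.18. Of these 20, 4 rose and none fell, beside 15.9% of all tested genes that rose and 15.8% that fell. The 4 that rose were ZBTB41 (1.36, SE 0.293), KLF6 (0.58, SE 0.128), EGR1 (0.54, SE 0.103) and ZBTB20 (0.48, SE 0.165). EGR1 is an immediate early gene, and its counts were 153, 148, 170 and 136 against 123, 138, 150 and 150. No test of the difference between these families and the ZNF members, or all tested genes, was run.

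The members were chosen by a name given for zinc fingers, so their fingers and linkers are not independent of the choice. The C2H2 pattern was found between 0 times (ZNF503) and 33 times (ZNF462) in a member, with a median of 7. The word ACTGGAG occurred in the coding sequence of 16 of the 37 tested members (43.2%) and of 22.2% of the 4870 tested protein-coding genes. In the members 15 of 52 TGEKP linkers began with it, and in the 515 ZNF genes 1228 of 2301 did. A share above that of other genes is therefore tied to the choice by name. ZNF480, whose linker is printed above, held it 8 times, ZNF766 5 times and ZNF302 2 times. The median log2 fold change was 0.04 in the 16 members with the word and -0.05 in the 21 without, and -0.01 and -0.04 over all tested protein-coding genes. For CTGGAGT, the word that pairs with positions 2 to 8 of the same strand, the median was 0.20 in the 6 members that hold it and -0.05 in the rest, while over all tested protein-coding genes it was -0.07 with the word and -0.02 without. The methods give only the siRNA strand that is antisense to APEX1, and its other strand was taken to be the full complement. For CCAGACC, which pairs with positions 2 to 8 of that assumed strand, the members stood at -0.04 with the word and 0.01 without. All tested protein-coding genes stood at -0.11 and -0.01. No test was run on these medians, and the part of such words in any change was not tested.

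Members with longer coding sequences tended to stand higher. Over the 37 tested members, which share the same 8 libraries, Spearman's rho with the log2 fold change was 0.47 for coding length and 0.21 for the number of fingers, beside 0.08 and 0.05 over the 4870 tested protein-coding genes. The 12 members with the shortest coding sequence (228 to 1473 bases) had a median of -0.16, and the 12 with the longest (2688 to 8169 bases) one of 0.34. For total exon length rho was 0.08, for summed counts 0.24, for the number of TGEKP linkers -0.21 and for the number of ACTGGAG words 0.19. Of the features tried, coding length had the largest rho. Genes are not independent replicates, and the coefficients are given as a description.

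In the RefSeq promoter table, with windows from 250 bases before the start to 50 after it, 35 of the 38 members had an entry. The 27305 genes of the table were not limited to expressed protein-coding genes, as the members were. Whether a difference in share is particular to ZNF genes was therefore not tested. The GC box GGGCGG, on either strand, was in 26 of the 35 (74.3%) and in 48.3% of the 27305 genes, and all 6 changed members held it. The ETS word CCGGAAG was in 12 members (34.3%), beside 12.2% of all genes, and in none of the 6 changed ones. The AP-1 word TGACTCA, of interest because the redox function of APE1 acts on AP-1, was in none of the 35 members and in 6.05% of all genes. A CCAAT box was in 40% of members and 39.7% of all genes. The CRE word TGACGTCA was in none of the members and in 2.25% of all genes. No word searched holds another. A match or its lack in these windows says nothing of whether a factor binds.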

How the data were processed

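Total RNA of A549 cells had been sequenced in quadruplicate as single 100-base reads. According to the submitters' processing notes and methods, reads were trimmed, aligned to GRCh38 with STAR 2.5.3a and assigned to Ensembl genes. The deposited values are raw counts per gene made by the authors with STAR's gene counting; the annotation release and the strand setting are not given in the sources used here. Each library held 1348386 to 1949886 counts on genes.

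Identifiers were matched to GENCODE 44 (57532 of 58302). Libraries were grouped by their titles. Genes were kept by edgeR's filter (minimum count 10, minimum total 15), which left 5368, scaled by TMM and fitted with edgeR 4.0.16 (quasi-likelihood test, siAPEX1 against siCTRL, no covariate). Genes past an adjusted p of 0.05 were called changed, and past an absolute log2 fold change of 1 in addition where stated. The study calls its replicates biological, while the labels do not say that they were separate cultures; p-values measure the spread between these libraries. The fit was tested on simulated counts. Alternatives were DESeq2 1.42.0, other scalings and filters, a replicate block, other member rules and each library left out.

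The members and gene lists were chosen with earlier results of these data known. Named were members past both thresholds, members past the adjusted p alone whose CPM do not overlap (largest change first), the 6 with most counts per kb of exon, listed members with a known role, the 3 genes on each side of the minimum, and TRIM28 and SETDB1. Fingers, linkers (TGEKP) and KRAB A-boxes were found by pattern in the translated canonical transcript. Exact tests used scipy 1.17.1.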

Additional observations from a re-analysis of the deposited data

Results flagged for a closer look

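For the 21 members named, each group of 4 libraries was examined for a library far from the other 3 (42 groups). In 1 of them a library stood apart by Dixon's criterion: ZNF146 was at 15.5 CPM in siCTRL replicate 2, where the other 3 siCTRL libraries lay between 26.6 and 27.8 CPM, a gap of 0.906 of the group's whole range. Chance alone flags about 1 in 20 groups.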

How the results depend on the processing

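ZNF581 passed both thresholds under every alternative that tested it. It was the 1 member called with RLE and upper-quartile scaling, TMM from protein-coding genes, all genes with a count, DESeq2 and the replicate block; leaving out a library in turn gave 1 or 2, the second being ZNF770, ZNF652 or ZNF507. Library size alone called 2 (ZNF652 added), an absolute log2 fold change of 0.75 called 5, and a member minimum of 40 called 2 (ZNF219 added). A filter of 10 counts in every library, which removes ZNF581, called 0 of 18 tested with edgeR (0 also at an unadjusted p), and members without shared exon bases gave 0 of 16 (0 also at an unadjusted p and with DESeq2). Members past the adjusted p numbered 6, with 12 for library size alone, 3 for a minimum of 160 counts, 2 without shared exon bases and 4 to 7 with a library left out. Their median of 0.01 moved to -0.33 with library size alone, -0.08 with all genes with a count and 0.23 with the filter of 10 counts, and lay between -0.03 and 0.03 with a library left out. The chromosome 19 difference of -0.02 moved to 0.04 with the filter of 10 counts and -0.17 with a minimum of 160, and lay between -0.09 (without siAPEX1 replicate 2) and 0.05 (without siAPEX1 replicate 4); apart from the filters' own removal of genes the cause was not tested.

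Same-numbered libraries did not deviate together (correlations of -0.0373 to -0.00348), so the numbers were not taken as pairs; the replicate block gave 5 members past the adjusted p, ZNF652 being lost (adjusted p = 0.0668). Named members near 0 changed sign: with library size alone ZNF207 (-0.04), ZNF217 (-0.23), ZNF302 (-0.28) and ZNF638 (-0.33); with TMM from protein-coding genes ZNF503 (0.00); with all genes with a count ZNF302 (-0.04) and ZNF638 (-0.08); and with the filter of 10 counts ZNF638 (-0.07). With a library left out the ranges were -0.25 to 0.13 for ZNF503, -0.10 to 0.38 for ZNF302, -0.08 to 0.13 for ZNF638, -0.14 to 0.09 for ZNF580, -0.37 to 0.01 for ZNF706 and -0.35 to 0.22 for ZNF766. None of these passed the test in either direction. Members gained a call with a library left out in 5 cases: ZNF462 (-0.75) without siCTRL replicate 1, ZNF609 (0.58) without siCTRL replicate 4, ZNF326 (-0.90) and ZNF24 (-0.66) without siAPEX1 replicate 1 and ZNF146 (0.52) without siAPEX1 replicate 4. ZNF770 was lost with DESeq2 (adjusted p = 0.0576) and without siAPEX1 replicate 3 (0.0574). Depth limits all of this: the median member had 138 counts over 8 libraries.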

Other observations

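Among ZNF genes just under the minimum, 5 with 75 to 79 summed counts passed the filter on low counts. ZNF219, a transcription factor on chromosome 14, held 15, 17, 19 and 13 counts in siCTRL and 1, 3, 2 and 7 in siAPEX1, a log2 fold change of -1.62 (SE 0.391, edgeR adjusted p = 0.00121), with groups that did not overlap. ZNF226, on chromosome 19, held 5, 6, 9 and 13 counts against 7, 10, 16 and 9, with a log2 fold change of 0.99 (SE 0.343, adjusted p = 0.0233). It did not pass when all genes with a count were tested (adjusted p = 0.0975). ZNF598, ZNF282 and ZNF830 did not pass, at 0.10, -0.63 and 0.12. ZNF219 shares 1643 of its 6663 exon bases with other genes, all on the opposite strand, and reads of the 2 strands cannot be told apart where the counting does not use strand.

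Small RNA genes lie inside 5 members, and the libraries were made with a small RNA kit. The 6 such genes inside ZNF106, ZNF277, ZNF280D, ZNF609 and ZNF766 held at most 8 counts over all libraries, and none was tested.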
